A study of Drosophila melanogaster with 2 samples.

Results

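The genes described here encode the translation initiation and elongation factors of Drosophila melanogaster. They were taken as every protein-coding gene whose symbol begins with eIF or eEF in the release 6 gene models, which gave 52 of 13945 protein-coding genes: 44 named eIF and 8 named eEF. Binding was measured by chromatin immunoprecipitation and sequencing (ChIP-seq) in whole embryos of both sexes, pooled, collected 0 to 24 h after laying, from a stable transgenic line in which gem carries GFP at its C-terminus. Gem (gemini) is a DNA-binding protein of the CP2 and Grainyhead family, and the tagged protein was pulled down with an antibody to GFP. There was 1 group of 2 biological replicates, numbered 1 and 4 in the labels. No embryos without the tag and no second condition were analysed here. The promoter or copy number behind the transgene, and whether untagged gem was also present, are not given in the sources used here. In whole embryos, a site used in a few cells and a weakly used site cannot be told apart.

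Translation begins when initiation factors bring the small ribosomal subunit, the initiator tRNA and the mRNA together. The cap of the mRNA is held by eIF4E, the mRNA is unwound by the helicase eIF4A on the scaffold eIF4G, and eIF3 links these to the small subunit. The initiator tRNA arrives with eIF2 and GTP, eIF2B recharges eIF2, and eIF5B helps the large subunit join. Elongation then runs on eEF1, which brings each aminoacyl-tRNA, and eEF2, which moves the ribosome along. In flies as in other animals, many genes of this machinery are transcribed at high levels in most cells, and a number of them start at a pyrimidine-rich initiator, the TCT element, in place of the usual initiator.

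A promoter peak is a peak whose summit lies within 500 bp of an annotated transcription start site (TSS) of the gene. The main list held 11045 peaks kept by the irreproducible discovery rate (IDR), which scores whether the order of peaks holds from replicate to replicate. Not every peak on it had a match in each replicate. Of 3432 protein-coding genes with a promoter peak, 3214 (93.6%) had it matched within 100 bp in both replicates. Signal is the deposited value of a peak and is used to order peaks within a list, since its scaling is not stated. The 2 replicate lists and the pooled list held 30000 peaks each. The IDR signals are those of the pooled list, and each factor gene's IDR signal was above its signals in the replicate lists. Read depth is unknown from these lists.

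Sequences around the summits of 5 genes are shown first, because these genes span the strongest and the weakest promoter peaks among the factors and include the strongest peak of an elongation factor. Each is the sequence of the gene's own strand within 50 bp of the summit, read from the RefSeq copy of dm6, and none overlaps an annotated exon. Capitals mark the 8-letter DRE (DNA replication-related element) TATCGATA and the 4-letter CCAG, which belongs to the CP2 half-site. The eIF4EHP window is chr3R:24109153-24109253, minus strand, and ends 193 bp upstream of the TSS. The eIF3h window is chr2L:5052425-5052525, minus strand, inside an intron of the gene. The eEF1gamma window is chr3R:29220046-29220146, plus strand, ending 26 bp upstream. The eIF4E1 window is chr3L:9402462-9402562, minus strand, ending 2 bp upstream, and the eIF4G1 window is chr4:930753-930853, minus strand, ending 38 bp upstream.
eIF4EHP: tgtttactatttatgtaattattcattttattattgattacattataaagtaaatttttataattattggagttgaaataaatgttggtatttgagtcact
eIF3h: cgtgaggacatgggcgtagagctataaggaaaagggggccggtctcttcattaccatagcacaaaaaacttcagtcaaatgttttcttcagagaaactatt
eEF1gamma: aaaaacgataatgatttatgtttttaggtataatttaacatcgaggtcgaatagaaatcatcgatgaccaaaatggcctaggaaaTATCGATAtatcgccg
eIF4E1: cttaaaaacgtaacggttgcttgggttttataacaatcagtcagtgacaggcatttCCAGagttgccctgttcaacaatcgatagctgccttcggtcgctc
eIF4G1: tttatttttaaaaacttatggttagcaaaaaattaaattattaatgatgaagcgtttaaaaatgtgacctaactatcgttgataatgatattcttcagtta

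Of the 52 factor genes, 13 had a promoter peak (25%), and 39 had none. Among all 13945 protein-coding genes 3432 had one (24.6%), so the share of the factor genes was near the background and the family as a whole does not stand apart by this measure. No test was made of the family, because the design has 1 group and the list was chosen with results of these data known. The gap to the background varied with the rule. In the pooled list, 18 factor genes (34.6%) had a summit within 500 bp against 35.0% of protein-coding genes. With a TSS within 250 bp the count was still 13 of 52 (25%), above the 18.3% of protein-coding genes, and within 1000 bp it was 15 (28.8%) against 29.0%. In the 5522 strongest IDR peaks 11 genes (21.2%) had one against 17.4%. Where the gene's own TSS had to be the nearest of any gene, ties included, 11 (21.2%) had one against 19.0%. With RefSeq gene models the 13 genes were the same, beside 24.6% of protein-coding genes.

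The count also differed between the replicates. Among the 11045 strongest peaks of replicate 1, 11 factor genes (21.2%) had a promoter peak against 24.5% of protein-coding genes, and among as many from replicate 4, 17 (32.7%) against 27.4%. Over the whole lists the counts were 18 (34.6%) against 34.5% in replicate 1 and 21 (40.4%) against 38.6% in replicate 4. The factor genes were thus below the background in the strong peaks of replicate 1 and above it in those of replicate 4, and no direction is read from them.

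**Figure D1:**
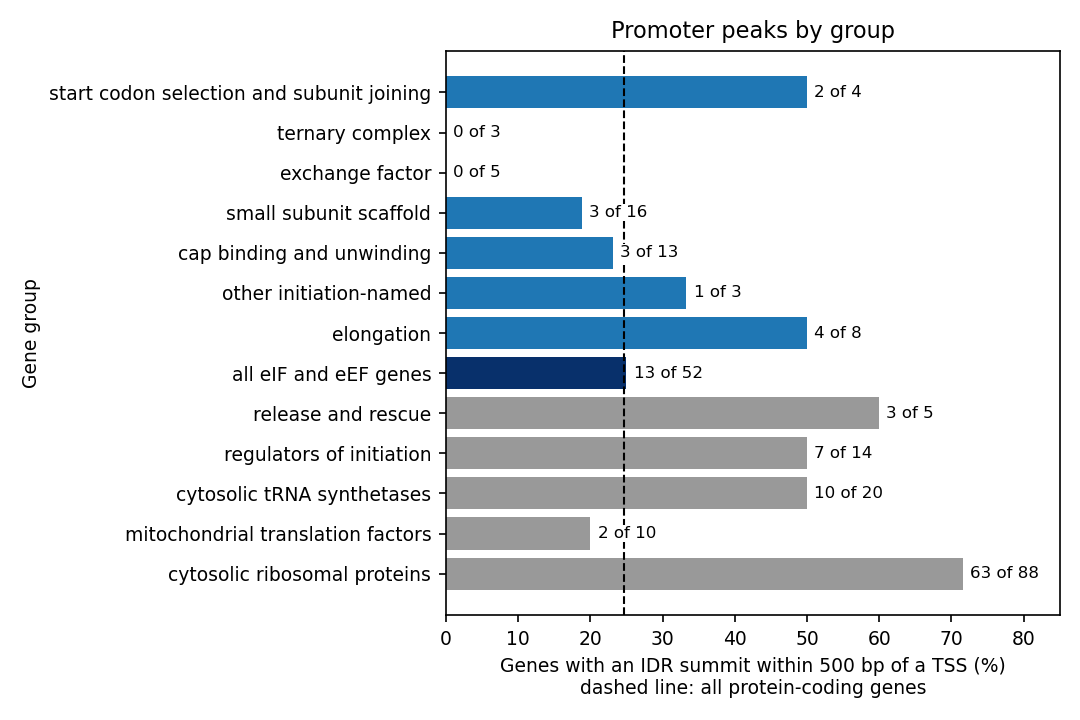
Share of genes with a promoter peak in the IDR list (x axis, percent) for the role groups of the factor genes (blue), all 52 (dark blue) and other lists of the translation machinery (grey), with counts beside the bars. The dashed line is the 24.6% of all protein-coding genes, and the 13 of 52 factor genes sit on it.

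The promoter peaks of the 13 genes covered a wide range of strength. Their median signal was 682, against 804 over all 3432 protein-coding genes with a promoter peak, and their median percentile among those was 44.8. Its side of the middle turned with the list: the median percentile was 54.5 in the pooled list, 58.1 in replicate 1 alone and 52.5 in replicate 4 alone, so no shift in strength is read from it. The strongest was at eIF4EHP (signal 7589), ahead of 98.7% of genes with a promoter peak. The weakest was at eIF4G1 (195), close to the lowest signal of the IDR list, 187.

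**Figure D2:**
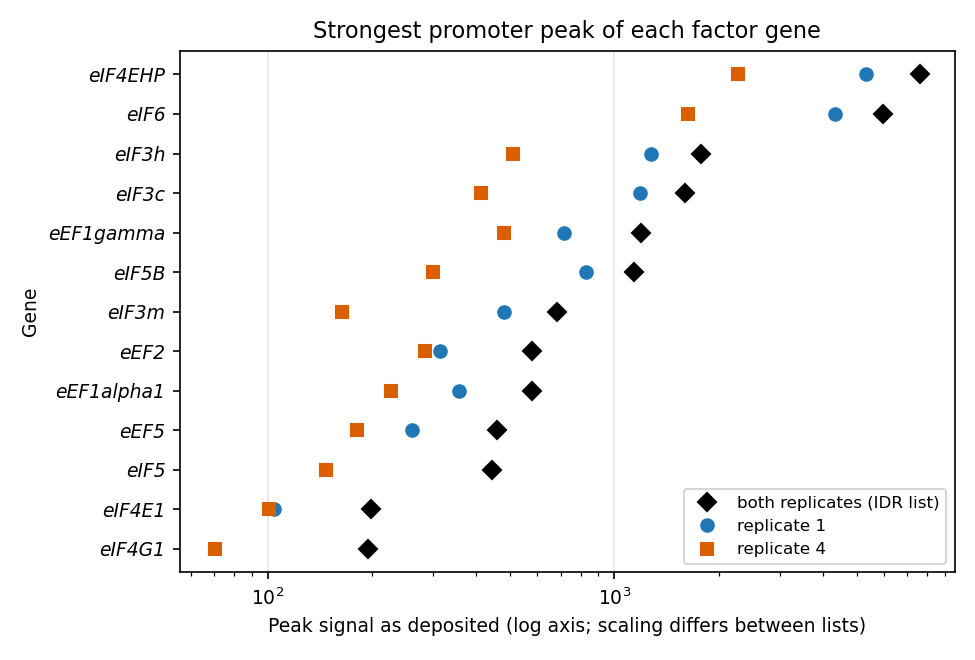
Signal of the strongest promoter peak of the 13 factor genes that have one (x axis, log scale, as deposited) in the IDR list of both replicates (diamonds), replicate 1 (circles) and replicate 4 (squares). Genes are in order of IDR signal from eIF4EHP at 7589 to eIF4G1 at 195, and eIF5 and eIF4G1 have no replicate 1 point because replicate 1 had no summit within 100 bp.

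Cap-binding and unwinding factors held both ends of that range. Of 13 genes, 3 had a promoter peak (23.1%, against 24.6% of protein-coding genes): eIF4EHP, eIF4E1 and eIF4G1. The protein eIF4EHP binds the cap but not eIF4G, and in the fly embryo it is known to repress translation of caudal with Bicoid. Its signal was 5331 in replicate 1 and 2277 in replicate 4, with ranks of 44 and 36 of the 30000 peaks of each. The peak spans chr3R:24108920-24109456, is 537 bp wide, and its summit is intergenic, 243 bp upstream of the gene's single annotated TSS. That summit is nearer to CG18428, a protein-coding gene on the other strand, whose TSS is 133 bp away, so the peak belongs to a promoter region that the genes share.

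The gene for the main embryonic cap-binding protein, eIF4E1, had a weak peak. It lay 52 bp upstream of the nearest of 4 TSSs (chr3L:9402310-9402713), with an IDR signal of 199, and signals of 104 in replicate 1 and 101 in replicate 4. Its rank was 12803 in replicate 1, outside the 11045 strongest, and 7378 in replicate 4. The scaffold gene eIF4G1, on chromosome 4, had a summit 88 bp upstream (chr4:930601-931004), with a signal of 70.7 in replicate 4 and no replicate 1 summit within 100 bp. In replicate 1 the strongest summit near its TSS was at position -309 bp, with a signal of 47.0 and rank 21151.

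The helicase gene eIF4A had summits in every list except the IDR list. Its strongest promoter signals were 134 in replicate 1 (rank 10836), 116 in replicate 4 (rank 6517) and 167 in the pooled list (rank 11919), and the summits of the replicates were not within 100 bp of each other. The nearest IDR summit, of signal 292, was 601 bp from a TSS of eIF4A and 145 bp from chic, the profilin gene. eIF4G2, a paralogue of eIF4G1, and eIF4B, a cofactor of the helicase, had weak pooled summits of 110 and 108. The remaining cap-binding paralogues eIF4E3, eIF4E4, eIF4E5, eIF4E6 and eIF4E7, and the helicase cofactors eIF4H1 and eIF4H2, had no summit within 500 bp in any of the 4 lists.

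The eIF3 scaffold had promoter peaks at 3 of 16 genes (18.8%, against 24.6% of protein-coding genes). At eIF3h the strongest peak had a signal of 1775 (chr2L:5052287-5052608) and its summit in an intron. It was the only strongest peak of the 13 with its summit downstream of the nearest own TSS, by 305 bp. Its signal was 1273 in replicate 1 and 509 in replicate 4, with ranks of 1014 and 1009. A second, weak eIF3h peak of 201 was in a coding exon 105 bp downstream of the TSS, and senju, on the other strand, has a TSS 168 bp from it.

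At eIF3c, a core subunit, the peak of 1600 (chr2R:17665432-17665822) had its summit 33 bp upstream of the TSS, with no other TSS within 500 bp. The signals were 1184 in replicate 1 and 411 in replicate 4. eIF3m had a peak of 682 (chr2R:14164772-14165076) 47 bp upstream, with 480 in replicate 1 and 164 in replicate 4, and the opposite-strand gene CG8323 has a TSS 179 bp from the summit. The other 13 scaffold genes, eIF3a, eIF3b, eIF3d1, eIF3d2, eIF3e, eIF3f1, eIF3f2, eIF3g1, eIF3g2, eIF3i, eIF3j, eIF3k and eIF3l, had no summit within 500 bp in any list.

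The eIF2 side of initiation was without IDR promoter peaks. None of the 3 subunit genes of eIF2, which carries the initiator tRNA, had one, and none of the 5 genes of its exchange factor eIF2B did. eIF2beta had a pooled summit of 143 (rank 13222), with 92.2 in replicate 1 and 48.1 in replicate 4, while eIF2alpha and eIF2gamma had none in any list. Of the eIF2B genes, eIF2Bbeta had a replicate 4 summit of 44.2 alone, and eIF2Balpha, eIF2Bgamma, eIF2Bdelta and eIF2Bepsilon had none. A very strong IDR peak of signal 12596 (chrX:2703638-2704190, rank 6) lay 679 bp from the TSS of eIF2Bbeta and 40 bp from that of Ugalt, a divergent neighbour, so it falls just outside the 500 bp rule. With the 8 genes together, 0 had an IDR summit within 500 bp against the 24.6% background, and 1 did within 1000 bp.

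Among the genes for start codon selection and subunit joining, 2 of 4 had a promoter peak, beside 24.6% of protein-coding genes. eIF5B, the GTPase of subunit joining, had a peak of 1138 (chr3L:3460562-3460959), with 830 in replicate 1 and 301 in replicate 4. Its summit was in the 5' UTR of a longer transcript and 165 bp upstream of the nearest TSS. eIF5, the GTPase activator for eIF2, had a peak of 443 (chrX:15991968-15992337) 218 bp upstream. CG46312, an unnamed gene on the same strand, starts at the same distance from that summit, and exd, which encodes a homeodomain cofactor of Hox proteins, starts 276 bp from it. In replicate 4 the eIF5 peak had a signal of 147 and in replicate 1 no summit lay within 100 bp, where the strongest summit near the TSS had a signal of 28.1 (rank 29483). eIF1A had no summit in any list, and eIF1 had summits in replicate 4 alone.

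Of the remaining initiation-named genes, eIF6 had a strong peak. The protein keeps the large ribosomal subunit from joining the small one too early and takes part in making the large subunit. The peak (chr2R:23850186-23850613) had a signal of 5957 and rank 78, with 4331 in replicate 1 (rank 77) and 1636 in replicate 4 (rank 85). The summit was 102 bp upstream of the TSS and 73 bp from the TSS of an antisense RNA gene, asRNA:CR45928. eIF2A had a replicate 4 summit of 105 alone, and eIF2D had none.

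Elongation factors had promoter peaks at 4 of 8 genes, against 9 of 44 initiation-named genes (20.5%) and 24.6% of protein-coding genes. The differences between these shares were not tested. eEF1gamma had the strongest, at 1193 (chr3R:29219906-29220274), 76 bp upstream of its TSS, with 714 in replicate 1 and 481 in replicate 4. eEF2 had a peak of 578 (chr2L:21682061-21682328) with its summit in the 5' UTR of a longer transcript, 22 bp upstream of the nearest TSS, and signals of 315 and 284 in replicates 1 and 4.

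eEF1alpha1, which delivers aminoacyl-tRNA, had peaks at separate TSSs: 1 of 578 in an intron 119 bp upstream of a TSS and 1 of 367 at the 5' end of the gene, 75 bp upstream and 81 bp from the divergent gene ERp60. The first of these had 357 in replicate 1 and 226 in replicate 4. eEF5, the hypusine-modified factor long known as eIF5A, had a peak of 459, 60 bp upstream, with 262 in replicate 1 and 181 in replicate 4. Of the other elongation genes, the paralogue eEF1alpha2 and the selenocysteine factor eEFSec had no summit in any list. eEF1delta had a pooled summit of 45.0 (rank 28280), and eEF1beta had a summit of 132 in replicate 4 alone. The subunit genes of the eEF1 complex thus had peaks at 2 of the 5 genes, eEF1alpha1 and eEF1gamma, with the paralogue counted. Over protein-coding genes the share was 24.6%.

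All 4 elongation factor peaks stood nearer the top of the replicate 4 list than of the replicate 1 list, which are equal in length. The ranks were 2274 in replicate 1 and 1092 in replicate 4 at eEF1gamma, 5407 and 2378 at eEF2, 4834 and 3123 at eEF1alpha1, and 6401 and 4023 at eEF5. Among the 7 initiation genes matched in both replicates, 3 stood nearer the top in replicate 4, with median ranks of 1155 in replicate 1 and 1394 in replicate 4. Over all 3214 protein-coding genes matched in both, 56.8% did, with medians of 2935 and 2727.5. Cytosolic ribosomal protein genes leaned the same way as the elongation factors, at 42 of 57 (73.7%). The median ranks of the 4 elongation genes were 5120.5 in replicate 1 and 2750.5 in replicate 4. These are descriptions across genes, and the difference between the groups was not tested.

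**Figure D3:**
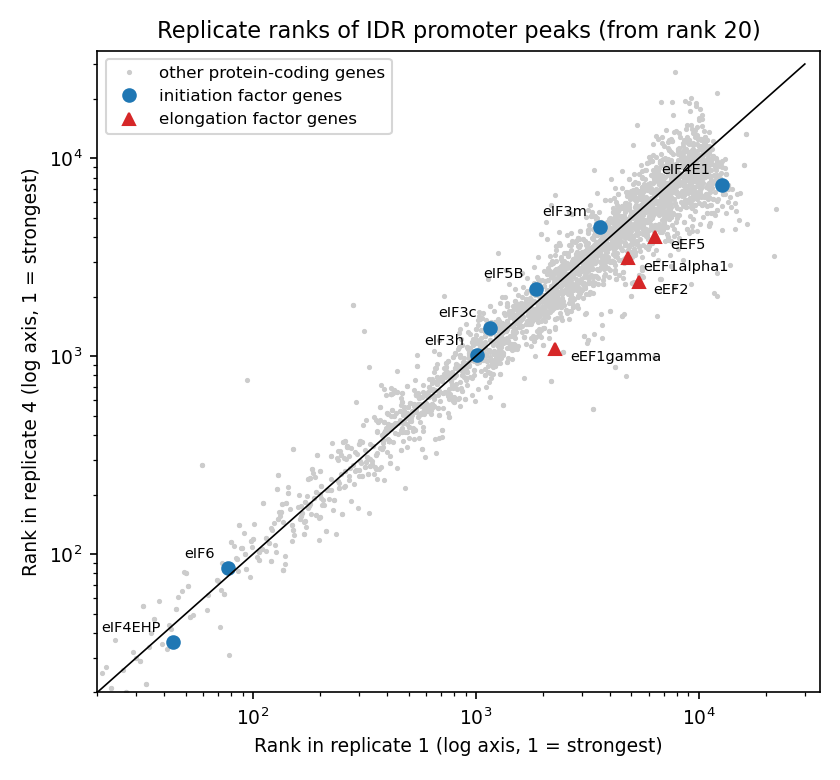
Rank of each gene's strongest IDR promoter peak in replicate 1 (x axis) and replicate 4 (y axis), both on log scales with rank 1 the strongest, for factor genes (coloured, named) and other protein-coding genes (grey). The line marks equal rank: the elongation factors lie below it, at ranks such as 2274 against 1092 for eEF1gamma, and eIF4EHP and eIF6 lie near it.

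In 10 of the 13 genes the peak was found again, no more than 100 bp away, in the top 11045 peaks of each replicate (76.9%, against 87.5% of protein-coding genes with a promoter peak). The 3 that were not are eIF5, eIF4E1 and eIF4G1. The 10 include all the genes with a signal above that of eIF5, 443, so the unmatched peaks were the weakest of the set.

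Summits of the factor genes lay mostly just upstream of the TSS. They were upstream of the nearest own TSS in 12 of 13 genes (92.3%, against 88.8% of the 3432 genes). The median distance was 88 bp against 174 bp, and 9 of 13 lay within 150 bp against 40.8%. Distance and side were taken to the nearest of a gene's own TSSs, and 76.9% of these genes had more than 1 TSS, against 45.1%. By that rule the summits of eEF2, eIF5B and eEF1alpha1 counted as upstream although they lay inside the gene, downstream of its 5' end. Short distances were not particular to the factor genes. The strongest peaks at cytosolic ribosomal protein genes, RpL34b, RpS20, RpS27 and RpL32, lay 165, 139, 43 and 130 bp from a TSS. The nearest summits were those of eEF2 at 22 bp, eIF3c at 33 bp and eIF3m at 47 bp, and the farthest that of eIF3h. The nearest TSS of any gene was the factor's own in 11 of 13 (84.6%, against 75.0%), counting eIF5, where CG46312 starts at the same distance. Another protein-coding TSS lay within 500 bp of the summit in 4 of 13 genes (30.8%, against 49.0%).

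**Figure D4:**
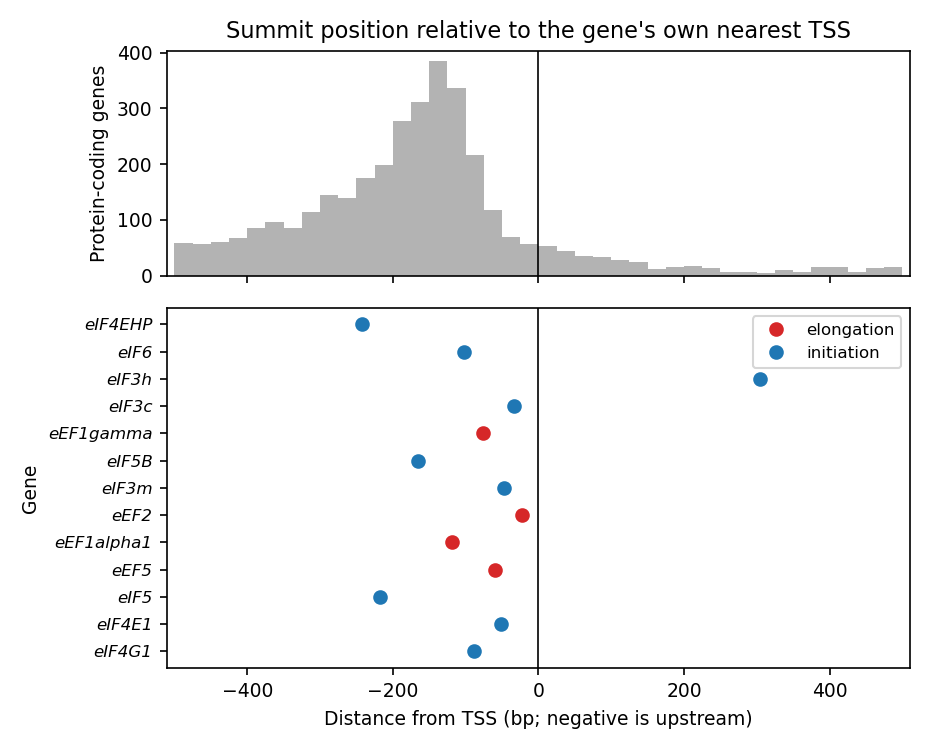
Position of the strongest promoter summit relative to the gene's own nearest TSS (x axis, bp, negative upstream) for the 3432 protein-coding genes with a promoter peak (top, histogram in 25-bp bins) and for the 13 factor genes (bottom, one point each). Of the 13, 12 lie upstream and eIF3h lies 305 bp downstream.

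A gene with many start sites presents more windows in which a summit can fall. Of the 13 genes with a peak 10 had more than 1 annotated TSS (76.9%), and of the 39 without one 10 did (25.6%). Over protein-coding genes the shares were 45.1% with a promoter peak and 20.5% without. Of the 6 pairs of numbered paralogues, eEF1alpha1 and eEF1alpha2, eIF3d1 and eIF3d2, eIF3f1 and eIF3f2, eIF3g1 and eIF3g2, eIF4G1 and eIF4G2, and eIF4H1 and eIF4H2, 2 had a promoter peak at the gene numbered 1 alone, 0 had one at the gene numbered 2, and 4 had none. The bound genes of the first kind were eEF1alpha1, with 4 annotated TSSs against 2 at eEF1alpha2, and eIF4G1. The eIF4G1 peak, of 195, was the weakest of the 13 and had no replicate 1 match, and eIF4G2 had a pooled summit of 110. Over all protein-coding genes 24.6% had a promoter peak, and no preference within the pairs is read from these counts.

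The letters at the summits were searched for the family's motifs and for other known promoter elements, on both strands within 50 bp of the summit. The palindrome AACCGGTT and the half-site AACCGG within it had 0 matches at the 13 genes, against 0.175% and 1.72% of the 3432. AACTGG occurred at eEF5 (7.69%, against 2.94%), and CCAG, which overlaps it on the other strand, at eEF2, eEF5, eIF4E1 and eIF5B (30.8%, against 22.2%). The DRE occurred at eEF1gamma (7.69%, against 1.63%) and the GAGA factor letters GAGAG at eIF3c (7.69%, against 6.59%). GGTCACAC, CACGTG and CAGGTA had 0 matches, against 0.554%, 0.495% and 1.49%. A match of 1 gene is a description and says nothing about which protein was bound. The median GC content of the summit windows was 38.6%, against 27.7% over the 3432 genes, with 17.8% at eIF4EHP and 52.5% at eIF5B the lowest and highest of the 13.

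Letters of the TCT initiator, TCTTT or CCTTT, were searched on the sense strand within 10 bp of each TSS. A match anywhere in that window counted, so a match is not shown to be an initiator. Of the 52 factor genes 10 held a match (19.2%), against 5.02% of protein-coding genes. The matches were at 3 of the 13 genes with a promoter peak (23.1%), eEF2, eEF5 and eIF3m, and at 7 of the 39 without one (17.9%). The windows of 3 genes are shown, because they are an elongation factor gene with a promoter peak, the helicase gene and a scaffold gene without one. They are the 21 bases centred on the TSS of eEF2 (chr2L:21682106-21682126, minus strand), eIF4A (chr2L:5981754-5981774, plus strand) and eIF3i (chr2L:4967765-4967785, minus strand), with the match in capitals. In each of these windows the match begins downstream of the annotated TSS and not at it.
eEF2: tgcagcgcctcgcTCTTTcct
eIF4A: gcaagatggagccTCTTTtgc
eIF3i: cacggtcacactgcTCTTTtg

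Beyond the promoter, 2 of the 52 factor genes (3.85%) carried IDR peaks inside the gene more than 500 bp from their TSSs, against 13.3% of protein-coding genes, and these 2 are the longest of the 52. The eIF4EHP gene spans 45884 bp and held 10 such peaks, with signals from 283 to 1039 and a median of 408. All 10 were matched in both replicates, 9 summits were in introns of eIF4EHP, and the other was in the 3' UTR of Syx1A, a syntaxin gene nested in it. For none of the 10 was the nearest TSS that of eIF4EHP: the nearest was that of Syx1A for the peaks in the 5' part of the gene and that of SMC1 for the peaks near its 3' end. Of 784 protein-coding genes within 2-fold of this length, 52 (6.63%) held as many, and their median was 2.

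The eIF5B gene spans 32320 bp and held 9 such peaks, all in introns, with signals from 193 to 1875 and a median of 514. The strongest, at chr3L:3432646-3433022, had 1301 in replicate 1 and 585 in replicate 4, and was above the gene's own promoter peak of 1138. It lay 27756 bp from the nearest eIF5B TSS and 7912 bp from that of sty (sprouty, an inhibitor of receptor tyrosine kinase signalling). Of the 9, 8 were matched in both replicates and 4 had an eIF5B TSS as the nearest, while sty was nearest to the other 5. Of 1092 genes within 2-fold of its length, 59 (5.40%) held as many.

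**Figure D5:**
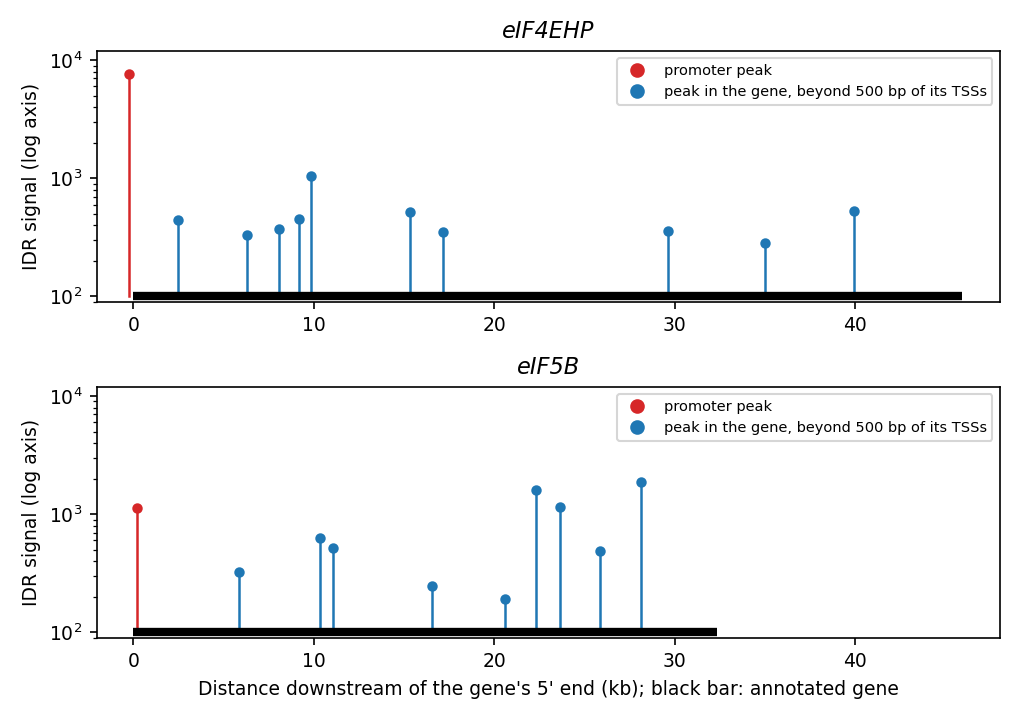
IDR signal (y axis, log scale) of peaks along eIF4EHP and eIF5B against the distance from the 5' end of the gene (x axis, kb). The red point is the promoter peak, 7589 at eIF4EHP and 1138 at eIF5B, the blue points are the 10 and 9 peaks inside the genes, and the black bar is the annotated gene.

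The other 50 factor genes had a median length of 1941 bp and reached 15603 bp at eIF4B, and the median was 1955 bp over all 52 against 2166 bp over protein-coding genes. The median distance from a TSS to the nearest IDR summit was 6320 bp, against 4437 bp. Just outside the 500 bp rule lay eIF4A at 601 bp and eIF2Bbeta at 679 bp, and just inside it the farthest strongest peak was that of eIF3h at 305 bp. The next outside were eEF1delta at 1155 bp, eIF4G2 at 1187 bp and eIF3d1 at 1305 bp, and each of these summits was nearer to another gene: ova, CG34355 and GILT2.

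Other genes of the translation machinery had promoter peaks as follows, beside the 24.6% of protein-coding genes. Cytosolic ribosomal protein genes had them at 63 of 88 (71.6%) with a median signal of 532. Cytosolic aminoacyl-tRNA synthetase genes, which charge tRNAs, had them at 10 of 20 with a median of 1190, led by IleRS at 3571, SerRS at 3034, GluProRS at 2658 and ThrRS at 2251. Release and rescue factor genes had them at 3 of 5: the release factors eRF3 at 2404 and eRF1 at 1608, and pelo, which frees stalled ribosomes, at 1116. Regulators of initiation had them at 7 of 14. The strongest was that of mTor, the growth-regulating kinase Tor, at 1737, with 1334 in replicate 1 and no match in replicate 4. Next came pAbp, the poly(A)-binding protein, at 754, and crc, the fly ATF4, at 624. Lk6, a kinase of eIF4E, followed at 367 and bel, a helicase, at 288. Mitochondrial translation factor genes had them at 2 of 10, mEFG1 at 388 and mIF2 at 340. The differences between these lists and the eIF and eEF genes were not tested.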

How the data were processed

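Peak lists in narrowPeak layout were read as deposited by the authors: a list per replicate, a pooled list and an IDR list, all on dm6 per the labels. Per the listings deposited with the samples, each was called against a control alignment. Which aligner and caller were used, and at what IDR threshold, is not given in the sources used here. Of the deposited values these were read: a signal, never negative, whose scaling is not stated, and a −log10 q-value, at its highest value in 88.0% of IDR peaks, so signal was used for order. The summit is the start plus the deposited offset.

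Gene models were those of Ensembl release 115 without transposable elements (18164 genes, 23581 distinct TSSs on 6 arms). No peak ended beyond its arm in the RefSeq assembly. Replicate summits were matched within 100 bp. Coordinates are 1-based. Calculations used Python 3.11.15. The join and the motif search were tested on simulated data. With 1 group of 2 replicates no test was run. Where 1 replicate was used alone, its 11045 strongest peaks were taken.

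The genes, lists and motifs were chosen with earlier results of these data known. Every gene with an IDR promoter peak is named, the others by role. Tor was read as mTor, its symbol in these gene models, and 1 symbol of the mitochondrial list (mEFG2) matched no gene and was left out. Sequence of arm 2R is not shown. Alternatives changed the TSS window, the peak list, the replicate, the gene models, the matching distance and the motif window.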

Additional observations from a re-analysis of the deposited data

How the results depend on the processing

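The number of factor genes with a promoter peak stayed within 1.5 times of 13 under all 8 alternatives, from 11 to 18. It was 17 without replicate 1 and 11 without replicate 4. The share over protein-coding genes moved too, from 17.4% to 35.0% across the same alternatives. The whole replicate 4 list, which is not among the 8, gave 21 factor genes against 38.6% of protein-coding genes. Of the 13 genes, 8 had a peak under every alternative: eEF1alpha1, eEF1gamma, eEF2, eEF5, eIF3c, eIF3h, eIF3m and eIF5B. eIF4EHP and eIF6 dropped out where the nearest TSS had to be their own, eIF4E1 and eIF4G1 in the 5522 strongest peaks, and these last 2 and eIF5 without replicate 4. Of the 39 others, 30 had none under any alternative. The same counts over all protein-coding genes are not given here, so nothing particular to the factor genes is read from them. The median percentile of the peaks, 44.8, was 54.5 in the pooled list, 40.6 within 250 bp, and from 52.5 to 58.1 with a replicate left out; the genes behind each median differ. Upstream summits numbered 9 of 11 without replicate 4 and 13 of 17 without replicate 1. Matches in both replicates were 9 within 50 bp and 10 within 250 bp. The DRE occurred at 0 genes within 25 bp of the summit and 2 within 100 bp, and GGTCACAC and CACGTG at 1 each within 100 bp, where the wider window holds more sequence. No paired analysis was possible because there is 1 group. Read depth is unknown, so absence of a peak does not show absence of binding.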

Other observations

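Of the 52 factor genes, 3 (5.77%) had a promoter peak among the 11045 strongest of replicate 4, no replicate 1 summit within 1000 bp of a TSS and no pooled summit within 500 bp: eIF1, eEF1beta and eIF2A. Over protein-coding genes 242 (1.74%) did, and in the reverse direction, with replicate 1 alone, 0 factor genes and 80 protein-coding genes (0.574%) did. The difference was not tested. At eIF1, which helps select the start codon, replicate 4 had a summit of signal 377 (rank 1576) 252 bp upstream of the TSS and another of 221 (rank 3217) 53 bp upstream. Replicate 1 had 0 summits within 1000 bp of that TSS. eIF1 and RpL28, a ribosomal protein gene, start within 1000 bp of each other on opposite strands.

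At eEF1beta, the exchange factor for eEF1, replicate 4 had a summit of 132 (rank 5697) 239 bp upstream, and at eIF2A 1 of 105 (rank 7122) 43 bp upstream, again with 0 in replicate 1 within 1000 bp. At eIF3m replicate 4 had its strongest summit, of 213 (rank 3374), 74 bp downstream of the TSS, without a match in replicate 1 within 100 bp. Among the 11045 strongest peaks of replicate 1, no summit within 500 bp of a factor gene's TSS lacked a replicate 4 match within 100 bp, except that of eIF4A at 134, where replicate 4 had other summits.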
